A study of Triticum aestivum with 24 samples.

Results

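Irrigated flag leaves of the bread wheat cultivars C306 and WL711 were compared to ask how the transcripts of a drought-tolerant and a drought-susceptible parent differ while water is supplied. The members are 6 of the 24 Affymetrix wheat arrays of the series, chosen by their titles: 3 of C306, labelled drought tolerant, and 3 of WL711, labelled drought susceptible. All of the leaves had been taken at the reproductive stage, and total RNA (8 ug) had been turned into biotin-labelled cRNA. These parents were also set beside 3 arrays of each cultivar under drought, and beside irrigated progeny bulks, 3 arrays of a tolerant and 3 of a susceptible bulk, each made of 10 recombinant inbred lines. The series' design text calls the replicates biological, but the number of plants in a sample, plant age, and the length and severity of the drought are not stated in the labels. Each side of the comparison is 1 cultivar, so a difference tied to drought tolerance and any other difference between the cultivars cannot be told apart.

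Drought tolerance in wheat is usually studied through genes that respond to water loss. LEA proteins and dehydrins are hydrophilic proteins that accumulate in drying tissue, often under the hormone abscisic acid, and protect membranes and enzymes. Fructans are soluble carbohydrate reserves of temperate grasses, and fructan exohydrolases break them down. Methyl transfer reactions serve the making of betaine, an osmoprotectant, and of lignin, while glutathione transferases and catalase act on toxic and oxidised compounds. Bread wheat carries 3 related genomes, so a probe set can read several near-identical gene copies, and a difference in transcript level, in which copy is expressed, or in the cultivars' sequence under the probes cannot be told apart here.

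The labelled tissue was checked with photosynthesis genes, which are bright in green leaves. All 7 named genes of that group were tested, and their mean levels lay between 12.83 and 16.03 in C306 and between 13.58 and 15.71 in WL711, on the log2(signal + 16) scale used throughout. Of 12 grain protein genes on the array only 4 were bright enough to be tested (WMAI-1, LMW-GS, Gli-8 and WSZ1b), at 6.13 to 7.42 in C306 and 5.20 to 6.74 in WL711, and none passed the test. Pairs of arrays correlated at 0.955 to 0.961 within C306, at 0.963 to 0.966 within WL711 and at 0.886 to 0.908 between the cultivars, over probe sets of shared design. The median signal ran from 68.4 to 76.4 in C306 and from 61.2 to 65.4 in WL711, without overlap. The spike-in controls were also brighter in C306, at a mean log2 signal of 12.76 to 13.01 against 12.34 to 12.56, and the part of these array differences in the results was not tested. The 3′ minus 5′ signal of GAPDH, actin and elongation factor 1 alpha, a sign of RNA quality, overlapped between the cultivars for each of the 3 controls.

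An array used only for comparison, the library labelled WL711 drought replicate 1, stood apart from its group. It correlated at 0.893 to 0.908 with the other two WL711 drought arrays, which correlated at 0.955 with each other. With irrigated WL711 its correlations were 0.940 to 0.944, and with irrigated C306 they were 0.922 to 0.930, while those of the other two ran from 0.868 to 0.897 and from 0.885 to 0.900. The library was kept under its label. Since all 24 arrays share one estimate of the spread, it enters the irrigated test as well. Many of the results that rest on drought arrays are also given without it, and the rest are given on all arrays only.

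Of 36707 probe sets tested, 5893 (16.1%) differed between the irrigated parents at a limma adjusted p under 0.05. In C306, 3022 (8.23%) were higher and 2871 (7.82%) were lower. The median size of a called difference was 1.22 on the log2 scale, against 0.45 over all tested probe sets, and 3750 calls were larger than 1, 1162 larger than 2 and 199 larger than 4. The split was 51.3% higher, 47.4% without centring and 48.1% after quantile normalization, but 32.5% (1687 higher, 3499 lower) with each array centred on its median over all probe sets, and 32.5% (1469 higher, 3053 lower) with no filter on low values, which also changes the probe sets used for centring. The median difference over all probe sets was 0.08 in the reported fit, and -0.09 and -0.06 under these last alternatives. The count changed with the arrays in the fit: it was 10708 with the 6 irrigated parent arrays alone, 10081 with the 12 irrigated arrays and 7529 without WL711 drought replicate 1. Leaving out irrigated WL711 replicate 2, an array of the comparison itself, gave 3853. The 3 arrays of C306 and the 3 of WL711 did not overlap in 16170 probe sets (44.1%), so separation alone is common in these data.

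**Figure D1:**
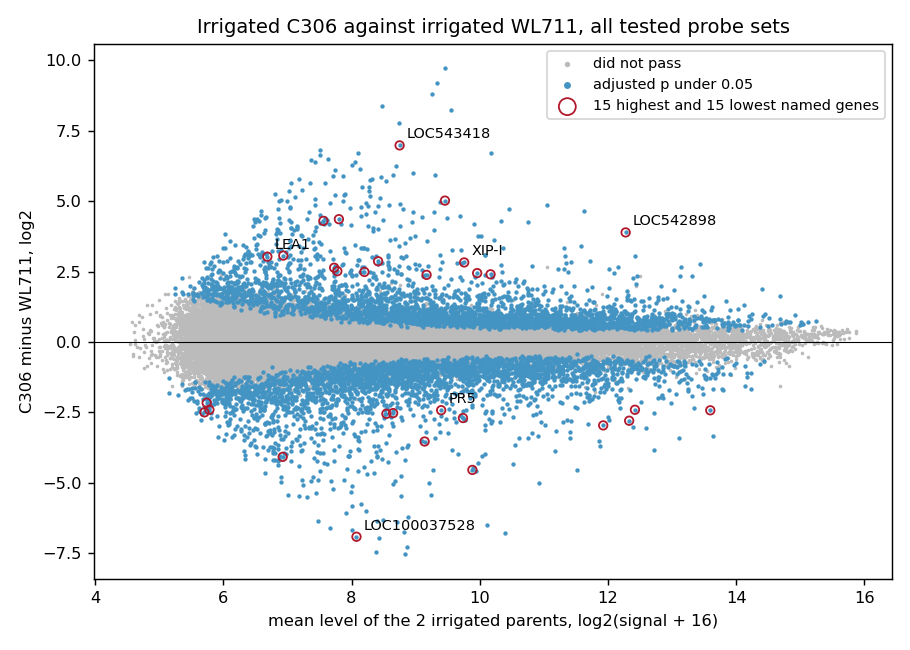
Difference between irrigated C306 and irrigated WL711 (vertical, log2) against the mean level of both (horizontal, log2(signal + 16)) for the 36707 tested probe sets, with 3 arrays per cultivar. Blue points are the 5893 called probe sets, grey points the rest, and red circles the 15 named genes with the largest difference in each direction; the largest differences lie at low and middle levels.

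Brighter probe sets were called more often. Over the 4 quartiles of mean level, from the dimmest to the brightest, 5.38%, 12.2%, 22.1% and 24.6% were called, while the median size of a called difference fell from 1.95 to 0.88. Most of the array has no gene name in the annotation used: 948 tested probe sets, of 632 genes, were named. Of these, 208 (21.9%) were called, 93 higher and 115 lower in C306. Counted by the brightest probe set of each gene, 62 genes (9.81%) were higher, 78 (12.3%) were lower and 492 did not pass, with a median difference of -0.06.

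Genes with a known role were put into groups, some members being added after their values had been seen: AGA.1, lgul, TEF1, eIF-2-beta, wcH2B-8, H2A-3 and tubb2 among those called. The groups held 60 tested genes with 113 probe sets, of which 29 probe sets (25.7%, against 16.1% of all tested and 21.9% of named probe sets) of 24 genes were called. Since members were added for their values, nothing is read from that share. Below, a group's count uses the brightest probe set of each gene and stands beside the 9.81% higher and 12.3% lower over all 632 named genes. Fits without 1 array leave out 1 of the 6 irrigated parent arrays. Signals are the deposited values in the order of replicates 1, 2 and 3. Differences are C306 minus WL711 in log2 ± standard error, with 3 arrays a side. The standard error uses the spread over all 24 arrays, so it does not describe the 6 irrigated arrays alone.

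**Figure D2:**
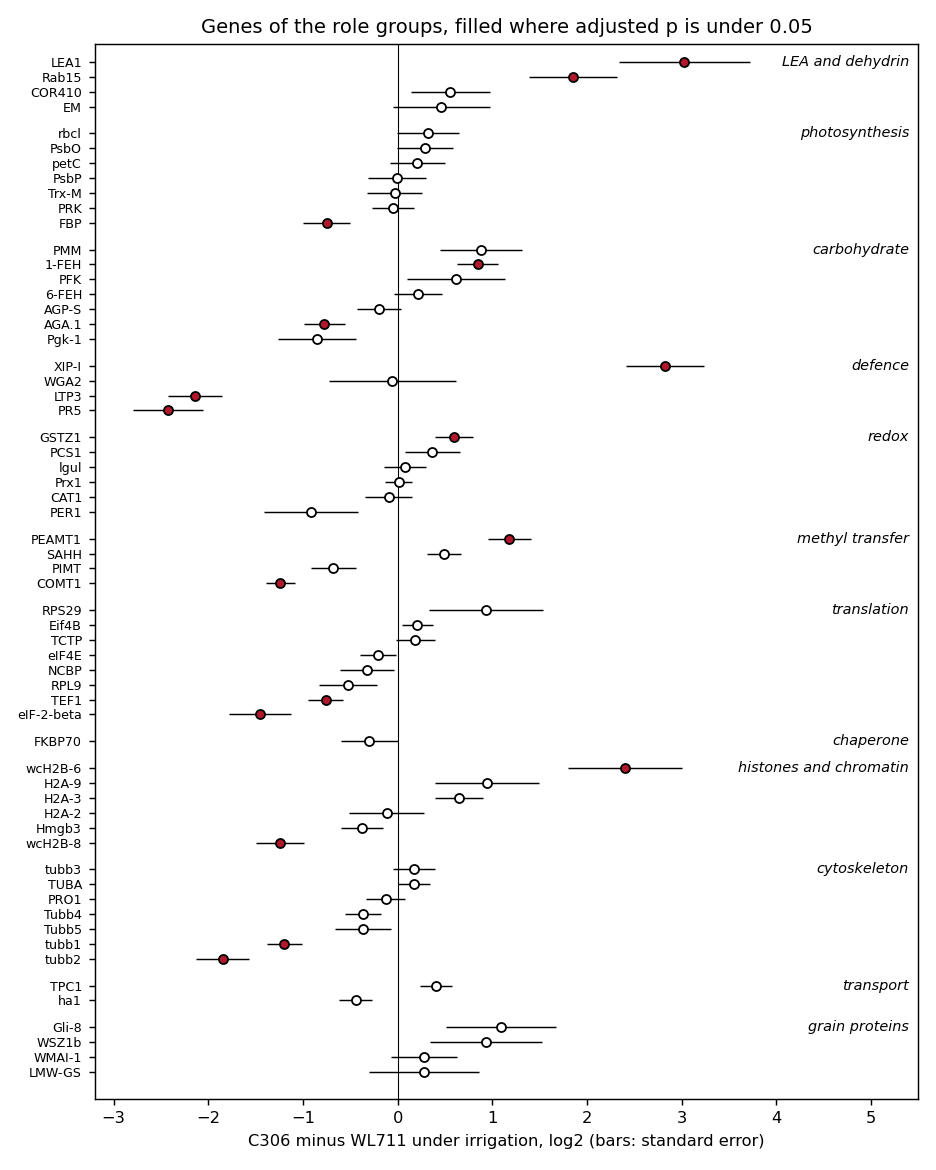
Difference between irrigated C306 and WL711 (horizontal, log2, bars: standard error of the fit, 3 arrays per cultivar) for the brightest probe set of each of the 60 tested genes of the role groups. Filled points passed an adjusted p of 0.05; LEA1 has the largest difference above 0 and PR5 the largest below 0.

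LEA and dehydrin genes were higher in irrigated C306 or did not pass. Of 4 tested genes, 2 were higher (LEA1 and Rab15), 0 were lower and 2 did not pass, with a median difference of 1.2, all at low levels. LEA1, a late embryogenesis abundant protein gene, had signals of 351, 182 and 309.8 in C306 and 7.9, 39.1 and 18 in WL711. All 3 C306 arrays lay well above the WL711 arrays, whose signals are in a range that cannot be separated from background. The difference was 3.03 ± 0.70 (adjusted p = 0.00344), and 2.00 with a pseudocount of 64, which damps dim signals. Rab15, a dehydrin gene, read 149.5, 63.9 and 129.9 in C306 against 13.6, 7.9 and 43.8 in WL711. Its groups did not overlap, although C306 replicate 2 was close to the highest WL711 array, and the difference was 1.85 ± 0.46 (adjusted p = 0.00703), or 1.06 with the pseudocount of 64. A second, dimmer Rab15 probe set gave -0.55 ± 0.52 and did not pass. COR410, a dehydrin gene known for its response to cold, differed by 0.56 ± 0.42 and EM, a LEA gene of embryos, by 0.46 ± 0.51, and neither passed.

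Among photosynthesis genes, FBP alone passed in its brightest probe set, and it was lower in C306. Of 7 tested genes 0 were higher, 1 was lower and 6 did not pass, with a median of -0.01. PRK, phosphoribulokinase of the Calvin cycle, read 37015, 40677 and 41899 in C306 and 38527, 42788 and 43426 in WL711, and these ranges overlap almost wholly. The difference was -0.05 ± 0.22, and that of PsbO, an extrinsic protein of photosystem II, was 0.29 ± 0.30. The Rieske protein gene petC (0.21 ± 0.29) and the thioredoxin gene Trx-M (-0.03 ± 0.29) also did not pass. FBP, named as fructose-1,6-bisphosphatase, read 6572, 7857 and 6917 in C306 against 12211, 12131 and 11823 in WL711. The groups were apart, at -0.75 ± 0.24 (adjusted p = 0.0375), but the call ended in 5 of the 6 fits that left out 1 array (adjusted p 0.0649 to 0.137) and without the intensity trend (0.073).

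PsbP, another extrinsic protein of photosystem II, gave different answers from its 2 probe sets. The brighter differed by -0.01 ± 0.30 and the dimmer by -1.27 ± 0.41 (adjusted p = 0.033), with signals of 3656, 4899 and 4204 in C306 and 9306, 11947 and 9917 in WL711. That call ended without the intensity trend (0.0682) and in 5 of the 6 fits that left out 1 array. For rbcl, the large subunit of Rubisco, 3 of 17 tested probe sets were called, all higher in C306. The brightest of the 17 read 58979, 70369 and 66291 in C306 and 56209, 61505 and 42235 in WL711, a difference of 0.32 ± 0.33 that did not pass. The most changed called one, far dimmer, read 2479.8, 2676 and 2083 against 518, 385 and 478. Its difference was 2.37 ± 0.44 (adjusted p = 0.000455), beside 1.64 ± 0.39 and 1.60 ± 0.49 for the other called ones. The last of these lost its call without WL711 replicate 1 (1.06, adjusted p = 0.181), without C306 replicate 1 (0.0867) or 2 (0.0909) and with no filter on low values (0.0617).

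Carbohydrate genes differed in both directions: of 7 tested, 1 was higher, 1 lower and 5 did not pass, with a median of 0.21. 1-FEH, a fructan 1-exohydrolase gene, read 13852, 13669.8 and 14753 in C306 and 7704, 7542 and 8469 in WL711, and every C306 array was above every WL711 array. The difference was 0.85 ± 0.22 (adjusted p = 0.00824), and without a filter on low values the adjusted p was 0.0721. AGA.1, named as a large subunit of ADP-glucose pyrophosphorylase, which makes the substrate of starch synthesis, read 3358, 3517 and 3685 against 6325, 5973 and 5959. The difference on all arrays was -0.77 ± 0.22 (adjusted p = 0.0158). It no longer passed without C306 replicate 1 (0.0687), WL711 replicate 1 (0.0586) or WL711 replicate 2 (0.0516). The small subunit gene AGP-S differed by -0.20 ± 0.23 and did not pass. Phosphoglycerate kinase, Pgk-1, read 16964, 17529 and 17242 in C306 and 31104, 34070.2 and 29346 in WL711. These groups do not overlap either, but at -0.85 ± 0.41 the adjusted p was 0.169.

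6-FEH, a fructan 6-exohydrolase gene, had 3 tested probe sets. Its brightest differed by 0.21 ± 0.25 and did not pass, while a dimmer one, at 119, 149 and 116 in C306 and 284, 275 and 269.8 in WL711, was lower in C306, with -1.02 ± 0.27 (adjusted p = 0.0113, or 0.0512 without C306 replicate 1). Under drought the dimmer one was higher in C306, by 1.44, and it stayed called without WL711 drought replicate 1 (1.25). Without C306 drought replicates 1 and 3, which leaves 1 C306 drought array, the value was 1.57.

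Defence-related genes differed in both directions. Of 4 tested, 1 was higher, 2 were lower and 1 did not pass, with a median of -1.1. XIP-I, a xylanase inhibitor that acts on fungal enzymes, read 1798, 2735 and 2253 in C306 and 296, 309 and 307 in WL711. The WL711 arrays lay close together and far below all C306 arrays, and the difference was 2.82 ± 0.41 (adjusted p = 2.16e-05), a 7.08-fold level in C306 on the scale of signal + 16. The second XIP-I probe set gave 2.71 ± 0.46. PR5, a thaumatin-like pathogenesis-related gene, went the other way, at 229, 209 and 398 in C306 against 1423, 1636 and 1523 in WL711. The difference was -2.43 ± 0.37 (adjusted p = 4.53e-05), a 5.38-fold level in WL711.

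LTP3, a lipid transfer protein gene, was likewise lower in C306, at 2087, 1981 and 2303 against 9145, 9556 and 9704. No C306 array came near a WL711 array, and the difference was -2.14 ± 0.29 (adjusted p = 6.65e-06). A dimmer LTP3 probe set gave 0.54 ± 0.32 and did not pass. LOC778422, whose probe set carries the same cluster number as those of LTP3, is among the most changed named genes described further on. The lectin gene WGA2 was dim and differed by -0.06 ± 0.67.

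Among the redox genes, 1 of 6 was higher, 0 were lower and 5 did not pass, with a median of 0.04. GSTZ1, a zeta-class glutathione transferase gene, was the higher one, and its probe sets differed in size. The clearest read 2703, 2708 and 2366 in C306 and 1091, 1047 and 1108 in WL711, a difference of 1.26 ± 0.21 (adjusted p = 0.000121). The brightest read 6361, 4767 and 5536 against 3309.5, 3517 and 4262. Its groups are near each other, and the difference of 0.60 ± 0.20 (adjusted p = 0.0441) lost its call in every fit that left out 1 array and under other centrings, with adjusted p from 0.0583 to 0.337. The remaining GSTZ1 probe set gave 0.40 ± 0.19 and did not pass. Catalase, CAT1, was bright in both parents, at 42788, 43993 and 44012 in C306 and 46401, 51487 and 43461 in WL711. These values overlap, and the difference was -0.10 ± 0.25.

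The peroxiredoxin gene Prx1 differed by 0.01 ± 0.14 in its brightest probe set. The glyoxalase gene lgul, which acts in removing methylglyoxal, had a bright probe set at 0.08 ± 0.22 and a dimmer one that was lower in C306. The dimmer read 3443, 3410.3 and 3331 in C306 and 6725, 6430.3 and 6534 in WL711, with -0.93 ± 0.21 (adjusted p = 0.00354). The phytochelatin synthase gene PCS1 (0.37 ± 0.29) and PER1 (-0.91 ± 0.49) did not pass.

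The methyl transfer genes were split, with 1 of 4 higher, 1 lower and 2 that did not pass (median -0.1). PEAMT1, phosphoethanolamine methyltransferase, which supplies the choline from which glycine betaine is made, read 23914, 24297 and 24997 in C306 and 10480.2, 11186 and 10965 in WL711. The groups lay far apart with little spread inside each, and the difference was 1.18 ± 0.23 (adjusted p = 0.000627). COMT1, a caffeic acid O-methyltransferase gene of lignin synthesis, was lower, at 3597, 4127 and 3621 against 9065, 9023 and 8988. Its difference was -1.24 ± 0.15 (adjusted p = 2.17e-06), a 2.36-fold level in WL711. SAHH, which removes the by-product of methyl transfer, was bright in both, at 43843, 50231 and 48998 in C306 and 34311, 35061 and 33401 in WL711. Here the groups do not overlap, but the difference of 0.49 ± 0.18 had an adjusted p of 0.0663. PIMT, a protein repair methyltransferase gene, gave -0.68 ± 0.24 (adjusted p = 0.0529).

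**Figure D3:**
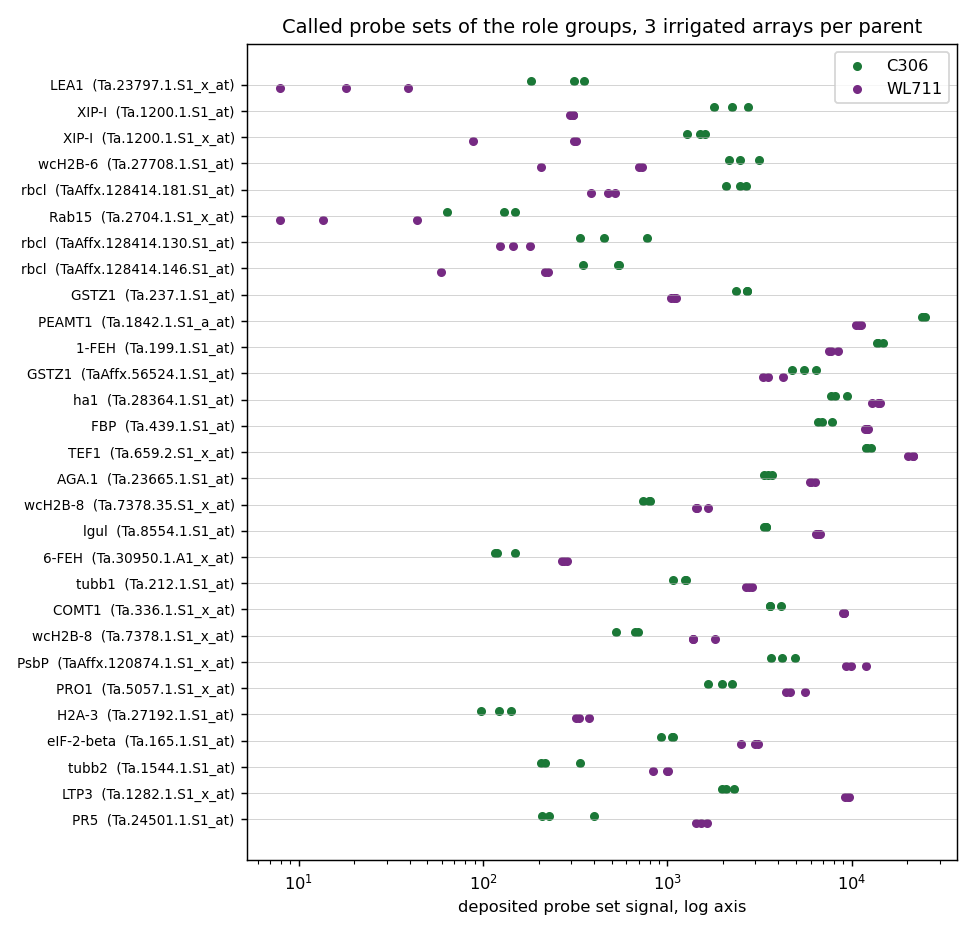
Deposited signal (horizontal, log axis) of each irrigated array, 3 of C306 in green and 3 of WL711 in purple, for the 29 called probe sets of the role groups, ordered by their difference. The 2 colours do not overlap within a row; LEA1, with the largest difference above 0, is at the top and PR5, with the largest below 0, at the bottom.

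No translation gene passed as higher in C306: 0 of 8 tested were higher, 2 were lower and 6 did not pass (median -0.26). TEF1, translation elongation factor 1 alpha, read 11955, 12741 and 12161 in C306 and 21378, 21412 and 20262 in WL711. Every WL711 array was above every C306 array, at -0.76 ± 0.18 (adjusted p = 0.0053), while a second probe set gave -0.45 ± 0.18 and did not pass. eIF-2-beta, a subunit of the initiation factor that brings in the first tRNA, read 928, 1065 and 1069.6 against 3082, 2988 and 2503, a difference of -1.46 ± 0.33 (adjusted p = 0.00284). The ribosomal protein gene RPL9 (-0.52 ± 0.30), the tumour protein homologue TCTP (0.18 ± 0.20) and the cap-binding gene eIF4E (-0.21 ± 0.19) did not pass. The only tested chaperone, the immunophilin gene FKBP70, differed by -0.30 ± 0.30, also without passing.

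Cytoskeleton genes were lower in C306 or did not pass, with 0 of 7 higher, 2 lower and 5 not passing (median -0.37). The lower ones were beta-tubulin genes. tubb1 read 1244, 1262 and 1073 in C306 and 2887, 2783 and 2655 in WL711, and its difference was -1.20 ± 0.19 (adjusted p = 5.03e-05). tubb2 read 335, 217 and 208 against 1004, 999 and 831, with -1.85 ± 0.28 (adjusted p = 3.73e-05). Other tubulins did not pass, such as tubb3 (0.17 ± 0.22) and the alpha-tubulin gene TUBA (0.17 ± 0.17). PRO1, profilin, which binds actin, did not pass in its bright probe set (-0.13 ± 0.21). A dimmer PRO1 probe set was lower in C306, at 1668, 2251 and 1989 against 4607, 5588 and 4400.3 (-1.29 ± 0.30, adjusted p = 0.00416).

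Histone genes differed in opposite directions. Of 6 histone and chromatin genes, 1 was higher, 1 lower and 4 did not pass, with a median of 0.27. The H2B gene wcH2B-6 read 3125, 2479 and 2169 in C306 and 206, 703 and 731 in WL711. WL711 replicate 1 was low beside the other two, and the difference was 2.40 ± 0.60 (adjusted p = 0.00689), or 1.85 without that array (adjusted p = 0.0589). Its other probe set gave 1.54 ± 0.56 and did not pass. The H2B gene wcH2B-8 was lower in C306 in 2 of its 6 tested probe sets, the clearer at 693, 664 and 526 against 1375, 1378 and 1819. That probe set gave -1.24 ± 0.25 (adjusted p = 0.00119). The other gave -0.93 ± 0.27, and lost its call without C306 replicate 1 or WL711 replicate 1. H2A-3 had a dim probe set lower in C306 (-1.39 ± 0.45, adjusted p = 0.0338) and a brighter one at 0.65 ± 0.25 that did not pass. The dim call ended with a pseudocount of 1 (0.081) and in 5 of the 6 fits without 1 array. Histone genes are near-identical copies, so the signal of one at the probes of another cannot be set apart.

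Neither transport gene passed in its brightest probe set. ha1, a plasma membrane proton pump, had a dimmer probe set at 8141, 9372 and 7689.5 in C306 and 12843, 14218 and 13831 in WL711. It was lower in C306, with -0.69 ± 0.21 (adjusted p = 0.0273), and the call ended without the intensity trend (0.0536) and in 5 of the 6 fits without 1 array. The channel gene TPC1 differed by 0.40 ± 0.17 and did not pass. None of 3 gibberellin synthesis genes on the array was bright enough to be tested.

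Over all named genes, the 15 furthest above and the 15 furthest below 0 in C306 minus WL711 were listed, and 26 of these 30 have only a locus number in the annotation, so no role is given to them. LOC543418 led the genes higher in C306, at 5039, 4459 and 4648 in C306 and 33, 6.9 and 31.8 in WL711. This probe set was bright in each C306 array and near the floor in each WL711 array, a difference of 6.98 ± 0.85 (adjusted p = 1.65e-06). The other probe set of LOC543418 was bright in both parents and differed by -0.59 ± 0.31, which did not pass. LOC543111 read 3596, 4389 and 3711 against 120.2, 39.4 and 219.9, with 5.02 ± 0.65. A second probe set of it gave 3.61 ± 0.56 while the brightest gave 0.15 ± 0.23 and did not pass.

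LOC542898 was bright in C306 and also clearly present in WL711, at 18034, 19047 and 18853 in C306 and 1280.2, 1369 and 1123 in WL711. The spread inside each group was small beside the gap, and the difference was 3.89 ± 0.24 (adjusted p = 9.11e-12). LOC100037571 read 879, 918 and 1138 against 37.5, 39.2 and 22.6, with 4.36 ± 0.35. LOC543197 read 714, 925 and 782 against 6.2, 38.2 and 45.1, with 4.30 ± 0.52. The remaining genes higher in C306 were LOC543369 (3.07), LEA1, LOC780602 (2.87), XIP-I, LOC780646 (2.64), LOC606323 (2.51), LOC543018 (2.49), LOC100037560 (2.44), wcH2B-6 and LOC100037533 (2.38). LOC780602 had 4 more tested probe sets, between -1.13 and 0.19, and none of the 4 passed. A second LOC543369 probe set was called as well, at 1.77 ± 0.49.

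LOC100037528 led the genes lower in C306. It read 5.7, 8.2 and 10 in C306, at the floor of the array, and 3016, 2754 and 2972 in WL711, a difference of -6.92 ± 0.45 (adjusted p = 2.27e-11). LOC543104 read 184, 134 and 214 against 4074, 4536 and 4876, with -4.55 ± 0.50. LOC543287 was dim in C306 (18.2, 17.3 and 5) and clear in WL711 (444, 406 and 601), with -4.08 ± 0.64. LOC778422 was bright in irrigated WL711, at 28066, 27899 and 28635, against 5127, 5223 and 5163 in C306. Both groups had little spread, and the difference was -2.43 ± 0.29 (adjusted p = 1.42e-06).

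LOC606363 was the only named gene with probe sets called in both directions. One read 2017, 1786 and 1866 in C306 and 12066, 14138 and 13991 in WL711 (-2.80 ± 0.20). The other, dimmer, read 440, 501 and 713 against 351, 149 and 178 (1.304 ± 0.44, adjusted p = 0.0447). Also lower in C306 were LOC542772 (-3.54), LOC100037541 (-2.97), LOC780678 (-2.70), LOC542826 (-2.55), LOC100125700 (-2.53), LOC543420 (-2.41) and PR5. A further 3 lower genes were dim and depend on the pseudocount: LOC543383 moved from -2.50 to -1.298 with a pseudocount of 64, LOC780687 from -2.41 to -1.27 and LOC542792 from -2.16 to -1.11. With a pseudocount of 1 the last 2 read -3.73 and -3.54. A second probe set of LOC543383 gave -1.77 ± 0.64 and did not pass. A second LOC780687 probe set was brighter, with levels of 8.00, 8.65 and 8.51 in C306 against 10.33, 10.18 and 10.09 in WL711. The call of LOC542792 also ended without C306 replicate 1 or 3 or WL711 replicate 2.

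Several probe sets of one gene often differed in their answer. Of 198 named genes with more than 1 tested probe set, 83 had a called one; in 18 of these every probe set was called in the same direction, in 64 some did not pass, and in 1 they were called both ways.

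The largest differences of all were of unnamed probe sets. TaAffx.113846.1.S1_s_at read 19044, 19883 and 20725 in C306 and 7.6, 8.7 and 7 in WL711, with 9.72 ± 1.31 (adjusted p = 7.35e-06). Its standard deviation was 0.10 in irrigated C306 and 0.12 in irrigated WL711, but 5.54 in WL711 under drought, which enters the standard error. Ta.2895.1.S1_x_at (9.20) and TaAffx.24911.1.S1_at (8.82) were also bright in C306 and near the floor in WL711. In the other direction, TaAffx.27775.1.S1_at (-7.55), Ta.7509.3.S1_at (-7.47) and Ta.2434.3.A1_at (-7.30) were bright in WL711 and near the floor in C306.

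This pattern, bright in 1 parent and dim in the other, was counted with limits chosen after the values had been seen: a signal of at least 1000 on all 3 arrays of one parent and at most 50 on all 3 of the other. It held for 31 probe sets bright in C306, with LOC543418 the only named one, and for 18 bright in WL711, with LOC100037528 the only named one. The median level of the former was 10.91 in C306 and 4.86 in WL711. In the irrigated bulks, which the limits did not use, their medians were 9.52 in the tolerant and 9.72 in the susceptible bulk. Both bulks lay between the parents for 28 of the 31. Of the 18 bright in WL711, 16 had both bulks between the parents, with medians of 11.29 in WL711, 5.10 in C306, 9.51 in the tolerant and 9.67 in the susceptible bulk. The limits set the parents far apart, so most levels would lie between them, and nothing is read from how many bulk levels did. Since each bulk mixes 10 lines descended from these parents, its level is a mean over lines. Between the bulks, where 14.1% of all tested probe sets were called, 7 of the 31 and 7 of the 18 were called, of which 2 and 4 ran in the parents' direction.

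Under drought the same limits held for 0 of the 31 and 1 of the 18. On WL711 drought replicate 1, 16 of the 31 lay above the midpoint of the irrigated parents, against 0 on each of the other two WL711 drought arrays, and 8 of the 18, against 16 on each of the other two. On the C306 drought arrays 21 to 23 of the 31 and 4 to 5 of the 18 lay above it. In the test between the drought-treated parents, 23 of the 31 and 11 of the 18 were called in the irrigated direction. Of all tested probe sets, 5.36% were called higher and 8.68% lower in C306 there. Without WL711 drought replicate 1 the numbers were 24 and 12, with 4660 of all 36707 tested probe sets called in either direction. No number is given for the 31 and 18 without C306 drought replicates 1 and 3, since 1 C306 drought array is then left.

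**Figure D4:**
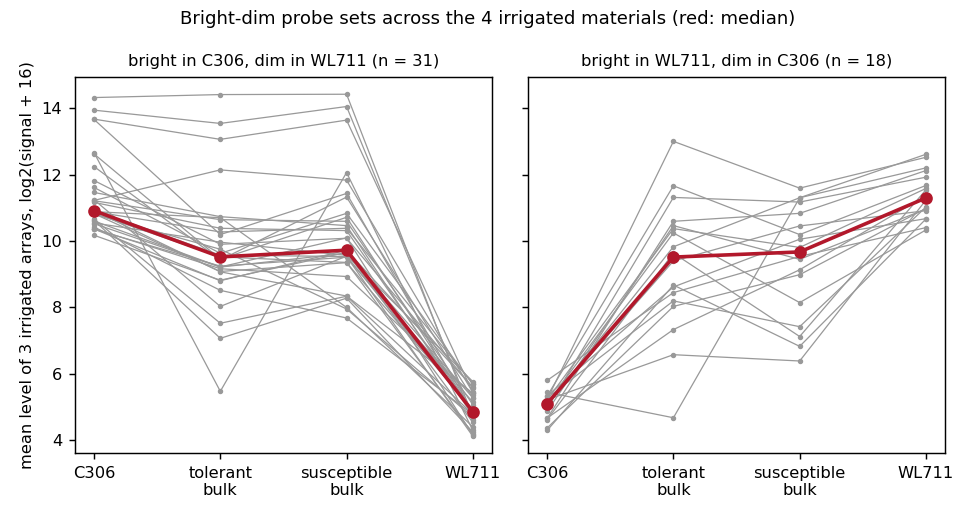
Mean level (vertical, log2(signal + 16), 3 irrigated arrays each) of the probe sets bright in one parent and dim in the other, in C306, both bulks and WL711. Each grey line is 1 probe set and the red line their median: on the left 31 probe sets bright in C306, on the right 18 bright in WL711, with bulk medians of 9.51 to 9.72 on both sides, between the medians of the parents.

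The same parents were set against each other under drought, on 6 other arrays. There 5153 probe sets (14%) were called, 1968 higher (5.36%) and 3185 lower (8.68%) in C306. Of the 5893 called under irrigation, 1704 were also called under drought, which is 28.9% of the former and 33.1% of the latter, and 1434 of the 1704 (84.2%) had the same direction. The spike-in level of the C306 drought arrays ran from 13.43 to 14.85, above that of the irrigated arrays. Without C306 drought replicate 1, left out after seeing the data, 3052 probe sets were called under drought. Of the shared calls, 1044 then kept the direction and 189 did not. Without C306 drought replicate 3 these numbers were 3166, 1103 and 188. Leaving out both leaves 1 C306 drought array and raises the standard error. For single probe sets that fit is used only for the size and sign of differences. Its counts over all probe sets are given only among the processing alternatives at the end, and nothing is read from them. Without WL711 drought replicate 1, also left out after seeing the data, 4660 were called under drought, and of 1973 shared calls 1397 (70.8%) had the same direction and 576 the opposite.

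Among the 30 most changed named genes, 13 were called under drought, 12 of them in the irrigated direction. LOC542898 differed by 3.89 ± 0.24 under irrigation and 3.20 ± 0.24 under drought, and LOC100037571 by 4.36 ± 0.35 and 5.001 ± 0.35. LOC543418 (5.49 ± 0.85 under drought) and LOC780602 (3.87 ± 0.39) were also called there. Without the C306 drought arrays 1 and 3, which leaves 1 C306 drought array, these 4 read 2.97, 5.75, 4.96 and 3.295, in the order named. In that fit PR5 read -0.91 in place of -1.82, LOC543104 -1.15 in place of -1.87 and LOC543383 -1.55 in place of -2.32. LOC780687 read 1.55 in place of 2.15, LOC543111 3.05 in place of 2.68 and LOC100037533 1.39 in place of 1.28.

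Without WL711 drought replicate 1, 18 of the 30 were called under drought, 13 in the irrigated direction and 5 in the opposite one, and 12 of the 13 were still called, all but LOC543104 (0.102). LOC543418 then differed by 7.43 ± 0.35 under drought, on the side and near the size of its irrigated value. LOC100037571 read 4.54 and LOC780602 3.23. LOC542898 read 2.75 ± 0.17. Its irrigated minus its drought difference then passed (1.14 ± 0.23, adjusted p = 0.0012), which it did not on all arrays (0.69 ± 0.34, 0.243). The 5 opposite ones were LOC606323 (-2.01), LOC542772 (1.01), LOC778422 (0.99), LOC780687 (2.03) and LOC543420 (1.84). PR5 was lower in C306 under drought, with -1.82 ± 0.37 (adjusted p = 0.00158), and -2.02 without that array. XIP-I did not pass under drought on all arrays (1.01 ± 0.41, 0.104) but was higher in C306 without that array (1.76, adjusted p = 0.000214). PEAMT1 likewise read 0.53 ± 0.23 on all arrays, without passing, and 0.76 without that array (adjusted p = 0.0295). LEA1 (1.96 ± 0.70, adjusted p = 0.061) and 1-FEH (0.49 ± 0.22) did not pass there, with or without it.

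Whether the difference between the parents itself differed between regimes was tested as irrigated minus drought. It passed for 2841 probe sets (7.74%), with 1708 positive (4.65%) and 1133 negative (3.09%) values, and for 4783 without WL711 drought replicate 1. Leaving out C306 drought replicate 1 gave 2193, and leaving out C306 drought replicate 3 gave 2123. This test shares the irrigated arrays with the comparison above, so both values are given side by side. COMT1 was lower in C306 under irrigation (-1.24 ± 0.15) and higher under drought (1.51 ± 0.15), with a difference of differences of -2.75 ± 0.22 (adjusted p = 3.88e-09). tubb1 likewise read -1.20 ± 0.19 and 0.66 ± 0.19 (-1.85 ± 0.26). Its drought value was 0.21 without the C306 drought arrays 1 and 3, with 1 C306 drought array left. The 0.58 without WL711 drought replicate 1 did not pass (adjusted p = 0.0543). LTP3 read -2.14 ± 0.29 and 0.62 ± 0.29 (-2.76 ± 0.40), and LOC778422 -2.43 ± 0.29 and 0.38 ± 0.29 (-2.81 ± 0.41). Their drought values passed without WL711 drought replicate 1 (1.17 and 0.99) and not on all arrays. LOC780687 read -2.41 ± 0.53 and 2.15 ± 0.53, and its drought value was 1.55 without the C306 drought arrays 1 and 3. Its other, brighter probe set had levels of 8.00, 8.65 and 8.51 in irrigated C306 against 10.33, 10.18 and 10.09 in irrigated WL711. Under drought the levels of that probe set were 12.31, 11.81 and 12.36 in C306 against 9.36, 8.73 and 8.95 in WL711. LOC100037528, near the floor in irrigated C306, differed by only -0.78 ± 0.45 under drought. LEA1 (1.07 ± 0.98), PR5 (-0.61 ± 0.53) and XIP-I (1.81 ± 0.58) did not pass this test on all arrays. The PR5 value was -1.52 without the C306 drought arrays 1 and 3.

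**Figure D5:**
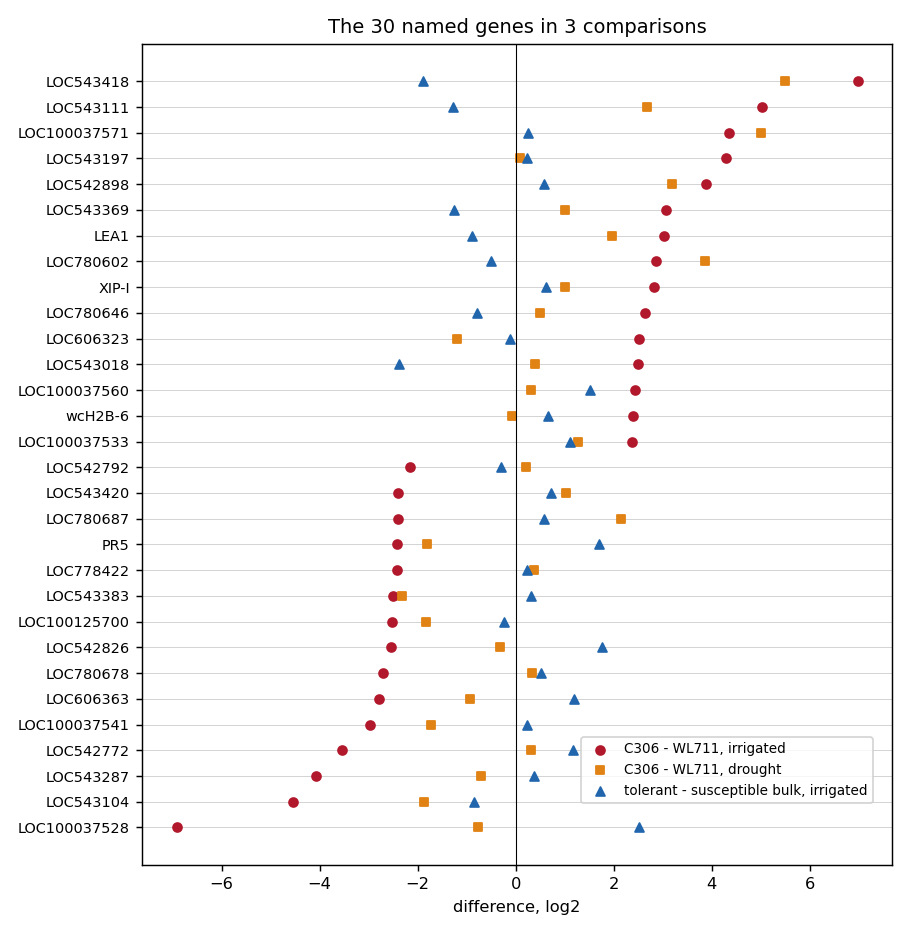
Difference (horizontal, log2) of the 30 named genes with the largest differences between the irrigated parents: C306 minus WL711 under irrigation (red circles), the same under drought (orange squares) and tolerant minus susceptible bulk under irrigation (blue triangles), 3 arrays per group. Red points were chosen for their size; 22 of the 30 orange squares and 10 of the 30 blue triangles lie on the same side of 0 as the red point.

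The irrigated bulks were compared on 6 further arrays, to see whether differences between the parents recur between pools of their tolerant and susceptible progeny. There 5165 probe sets (14.1%) were called, 2361 higher (6.43%) and 2804 lower (7.64%) in the tolerant bulk. Of the 5893 called between the parents, 1383 were also called between the bulks, 23.5% of the former and 26.8% of the latter. In 356 of these (25.7%) the tolerant bulk differed in the direction of the tolerant parent, and in 1027 it differed in the opposite direction. Of these 1027, 569 were higher in C306 and lower in the tolerant bulk, and 458 the reverse. The bulks were taken as labelled, and nothing in these values checks which bulk is which, so the sign of every bulk difference given here rests on those labels. The array controls also differed between the bulks: the 3′ minus 5′ signal of elongation factor 1 alpha was 1.42 to 2.80 in the tolerant and -0.22 to 0.42 in the susceptible bulk, and the spike-in level was 12.96 to 13.13 against 12.44 to 12.70. The part of these controls in the opposite directions was not tested. Leaving out 1 array at a time, of either parent or either bulk, gave 196 to 289 shared calls in the parents' direction and 651 to 838 against it, and without WL711 drought replicate 1 there were 633 and 1651.

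Of the 30 most changed named genes, 9 were called between the bulks and 8 of these ran against the parents. LOC100037560 was the exception, higher in C306 by 2.44 ± 0.16 and in the tolerant bulk by 1.52 ± 0.16 (adjusted p = 2.11e-06). LOC543018, higher in C306 by 2.49 ± 0.47, read -2.38 ± 0.47 in the tolerant minus the susceptible bulk. PR5 was lower in C306 but higher in the tolerant bulk, by 1.69 ± 0.37 (adjusted p = 0.00349), and LOC100037528 by 2.51 ± 0.45. GSTZ1, higher in C306, was lower in the tolerant bulk in the clearest probe set (-0.95 ± 0.21), and 1-FEH as well (-0.73 ± 0.22). Lower in both C306 and the tolerant bulk was the dimmer lgul probe set (-1.22 ± 0.21). Of the 29 probe sets of the role groups called between the parents, 11 were called between the bulks, against 14.1% of all tested. Of the 11, 3 ran in the parents' direction and 8 against it. LEA1 (-0.90 ± 0.70), Rab15 (0.30 ± 0.46), XIP-I (0.61 ± 0.41), PEAMT1 (0.45 ± 0.23) and COMT1 (-0.40 ± 0.15) did not pass between the bulks.

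By the brightest probe set of each of the 7 photosynthesis genes, 0 were higher in C306 and 4 were higher in the tolerant bulk. Over all 632 named genes, 108 (17.1%) were higher and 35 (5.54%) lower in the tolerant bulk, against 62 (9.81%) and 78 (12.3%) in C306. PsbO was higher there by 1.40 ± 0.30, petC by 1.24 ± 0.29, the brightest rbcl probe set by 1.40 ± 0.33 and PRK by 0.74 ± 0.22. CAT1 too was higher in the tolerant bulk, by 1.14 ± 0.25, where the parents differed by -0.10 ± 0.25. The dimmer rbcl probe set higher in C306 by 2.37 had levels of 11.27, 10.36 and 9.78 in the tolerant against 8.49, 8.10 and 8.53 in the susceptible bulk. The rbcl probe set with 1.64 read 8.58, 9.07 and 9.36 against 6.50, 6.58 and 7.05. That with 1.60 read 8.40, 7.01 and 8.78 against 7.65, 7.77 and 7.69, which overlap. Whether these values differ between parents and bulks was not tested.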

How the data were processed

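Flag leaf RNA of 8 groups (24 arrays, 3 per group) was measured. The deposited values are linear probe set intensity; the submitters' processing notes name GCOS 1.2. After trimming 2% at each end, every array had a mean of 500.091 to 500.113. Detection calls were not used, so low signals may be background, and precision is set by the number of arrays. The test used log2(signal + 16), without 111 of the 61290 probe sets that were controls and without the 40% of lowest mean (below a signal of 39). Arrays were centred on the median of the 36707 tested probe sets.

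limma 3.58.1 (R 4.3.3) fitted 8 group means with a trend on intensity (residual degrees of freedom 16, prior 8.32). Tests were two-sided, adjusted by Benjamini-Hochberg over all tested probe sets within each of 4 comparisons, at 0.05. In simulated data made for the irrigated parents, with 36707 probe sets, 100 were changed by log2 1 and 100 by log2 2. The fit recovered 21 and 63 of these, with 1 false call. No other probe set was changed there, whereas 5893 were called in the data. The adjusted p is stricter with so few changes, so these rates do not describe the reported test.

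Names came from the platform annotation (1273 probe sets, 771 genes), of which 770 genes matched the RefSeq gene table of assembly IWGSC CS RefSeq v2.1. The text names the 15 genes with the largest called, non-overlapping difference in each direction, called members of 15 gene lists and of the wider role groups, and 3 unnamed probe sets each way. Members and lists were chosen with earlier results of these data known. Of the 15 lists, 5 had no tested gene: grain storage, transcription factors, signalling, nitrogen and proteolysis. For proteolysis 3 genes on the array matched, but none was bright enough to be tested. For the rest of these no annotated gene matched the symbols or words of the list, which does not show that such genes are absent or dim. The grain protein genes given above come from a role group. The other lists are parts of the role groups, whose called members are given above. Same-numbered replicates of the parents did not deviate together (r = 0.000685, 0.0788 and 0.0183), so the numbers were not used as pairs.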

Additional observations from a re-analysis of the deposited data

Results flagged for a closer look

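The difference between C306 and WL711 was itself different under irrigation and under drought for 27 of the 61 named probe sets, by the limma test of irrigated minus drought at an adjusted p of 0.05 (7.74% of all tested probe sets passed it). The 61 were chosen for their irrigated difference and the test uses the same irrigated arrays, so the number of passes is a description. Of the 27, 9 values were positive and 18 negative. Without the C306 drought arrays 1 and 3, which leaves 1 C306 drought array, all 27 kept their sign. So did the drought differences of the 21 of the 61 called under drought itself. Passes among the 61 are not counted in that fit, so a kept sign does not mean that a value still passed. Without WL711 drought replicate 1, all 27 passed with the same sign, and 7 more of the 61 passed, LOC542898 among them. Of the 21, 18 were then still called under drought.

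A positive value means that C306 minus WL711 was higher under irrigation than under drought, whatever the sign of the drought difference, which was above 0 for 5 of the 9 and below 0 for 4. Positive were the unnamed TaAffx.24911.1.S1_at (8.51), LOC543197 (4.21), LOC606323 (3.71), 2 rbcl probe sets (3.25 and 2.19), LOC780646 (2.14), LOC100037560 (2.13), LOC543369 (2.07) and the brightest GSTZ1 probe set (1.27). In the 18 with a negative value the drought difference was above 0 for 12 and below 0 for 6. Negative were TEF1 (-0.92), tubb2 (-1.59), tubb1 (-1.85), LOC606363 (-1.86), LOC542826 (-2.22), the dim 6-FEH probe set (-2.46), LOC543104 (-2.68), COMT1 (-2.75), LTP3 (-2.76), LOC778422 (-2.81), LOC780678 (-3.05), LOC543287 (-3.38), LOC543420 (-3.44), LOC542772 (-3.85), LOC780687 (-4.56), LOC100037528 (-6.15), Ta.2434.3.A1_at (-7.43) and TaAffx.27775.1.S1_at (-7.58). The last rests in part on 1 array: without WL711 drought replicate 1 its drought difference was -2.18 in place of 0.03, and irrigated minus drought was -5.37. Without the C306 drought arrays 1 and 3, LOC543369 read 1.83, LOC543287 -2.68, TEF1 -0.96, GSTZ1 0.92 and the rbcl probe sets 2.41 and 1.575.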

How the results depend on the processing

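Of 1457 values of the 61 named probe sets under the alternatives, 1407 kept direction and call, 50 lost the call, in 12 probe sets, and 0 reversed. Without a filter on low values 1469 probe sets were higher in C306, 1893 passed irrigated minus drought, and calls shared with drought and with the bulks in opposite directions numbered 164 and 593. Centring on the median over all probe sets gave 1687 higher. A fit of the 6 irrigated parent arrays alone called 10708 (5418 higher, 5290 lower). With the 12 irrigated arrays it called 10081 (4783 higher, 5298 lower) and 9507 between the bulks, with 1218 shared calls in the same and 2879 in the opposite direction. Without C306 drought arrays 1 and 3, chosen after seeing the data, 1159 were called under drought and 1314 in irrigated minus drought, with 563 shared drought calls in the same and 124 in the opposite direction. Nothing is read from these counts, since 1 C306 drought array is then left. Each of the 24 arrays was left out in turn, those outside the irrigated parents after seeing the data. Leaving out an array of the compared groups gave 3853 to 4570 calls between the irrigated parents (1970 to 2390 higher, 1852 to 2386 lower), 3052 to 7073 between the parents under drought (lowest without C306 drought replicate 1, highest without C306 drought replicate 2), 2917 to 4219 between the bulks and 1971 to 4783 in irrigated minus drought. Shared calls with drought then numbered 1044 to 1789 (same) and 175 to 576 (opposite), and with the bulks 196 to 289 and 651 to 838. The bulk counts fell most without susceptible bulk replicate 1 or 3, to 2917 and 3075, and without tolerant bulk replicate 2, to 3399. Leaving out an array of other groups gave 5508 to 7529 calls between the irrigated parents. WL711 drought replicate 1 gave the highest counts, with 7529 (3728 higher, 3801 lower) between the irrigated parents, 6743 between the bulks, 4783 in irrigated minus drought, and 633 and 1651 shared calls with the bulks. With the replicate number as a block, 5881 were called between the irrigated parents, against 5893. The cause of these changes was not tested. Dim probe sets are limited by background.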
